A study of Mus musculus with 43 samples.

Results

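The 10 genes described here encode the fast and slow forms of the myosin heavy chain and of the 3 troponin subunits. They were chosen by name, as the entries of the deposited table whose gene symbol is Myh1, Myh2, Myh4, Myh7, Tnnt1, Tnnt3, Tnni1, Tnni2, Tnnc1 or Tnnc2, and all 10 were found as single entries among 42349. Of these, 6 belong to fast fibres (Myh4, Myh1, Myh2, Tnnt3, Tnni2 and Tnnc2) and 4 to slow fibres (Myh7, Tnnt1, Tnni1 and Tnnc1). All mice were female and 15 months of age, and were either wild type (WT, Irs1+/+) or carried a global knockout of insulin receptor substrate 1 (KO, Irs1-/-). They were fed ad libitum (AL) or kept on dietary restriction (DR), which was stepped up from 10 weeks of age to 30% below the intake of AL controls and lasted 12 months. Poly(A) RNA of skeletal muscle, inguinal white adipose tissue (WAT), liver and brain was sequenced on an Ion Proton instrument, from 2 WTAL, 3 KOAL, 3 WTDR and 3 KODR mice, and the labels list 2 WTDR libraries in WAT. The sources used here do not name which muscle was taken. The Irs1 entry did not follow the genotype labels. It had an FPKM (fragments per kilobase of transcript, scaled to the fragments mapped, a level per length) of 5.72 in WTAL, 6.31 in KOAL, 5.48 in WTDR and 5.82 in KODR muscle, and in WAT of 2.47, 5.37, 6.56 and 2.58. Which bases the knockout removes is not given in the sources used here, so this entry may not check the genotype, and KOAL and KODR below mean the groups that carry those labels.

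A muscle contracts when myosin heads pull on actin, and the heavy chain that a fibre makes sets much of its speed. Myh4, Myh1 and Myh2 encode the IIb, IIx and IIa heavy chains of fast fibres and Myh7 the beta chain of slow fibres and heart. Troponin is the calcium switch of the thin filament: troponin C binds calcium (Tnnc2 fast, Tnnc1 slow and cardiac), troponin I holds the filament off (Tnni2 fast, Tnni1 slow) and troponin T ties the complex to tropomyosin (Tnnt3 fast, Tnnt1 slow). Mouse limb muscles are mostly fast, and slow fibres are common only in a few postural muscles, so fibre genes also report which muscle and which piece of it was taken.

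The fast heavy chains are close copies of each other, which bears on how well short reads can be divided among them. Coding sequences of Myh4 and Myh1 were identical at 90.2% of aligned bases, those of Myh4 and Myh2 at 88.2% and those of Myh1 and Myh2 at 91.0%, whereas the fast chains shared 77.2% to 77.8% with Myh7. Stretches of 75 bases from one transcript that recurred exactly in the other made up 4.9% of Myh4 against Myh1, 3.79% of Myh4 against Myh2 and 12.9% of Myh1 against Myh2. None recurred between any of the 3 fast chains and Myh7 or between the fast and slow troponins, which were 67.8% to 70.2% identical. Of Myh7, 15.5% of such stretches recurred in Myh6, the alpha chain of heart. The split among Myh4, Myh1 and Myh2, and that between Myh7 and Myh6, is thus less certain than that of fast from slow. The same early coding stretch of the 4 heavy chains is shown here, read from the GENCODE transcripts of GRCm38. It holds 75 bases each from coding base 7 to 81 (4 to 78 in Myh7). Capitals mark where a base differs from Myh4 (2 in Myh1, 3 in Myh2 and 21 in Myh7). The stretch was the first to align without a gap in all 4. In it Myh1 and Myh2 are closer to Myh4, and Myh7 is farther from it, than over the whole coding sequence.
Myh4: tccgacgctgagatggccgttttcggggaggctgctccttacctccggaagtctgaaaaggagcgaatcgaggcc
Myh1: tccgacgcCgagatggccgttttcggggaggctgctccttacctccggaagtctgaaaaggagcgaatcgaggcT
Myh2: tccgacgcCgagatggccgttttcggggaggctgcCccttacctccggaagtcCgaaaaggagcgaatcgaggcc
Myh7: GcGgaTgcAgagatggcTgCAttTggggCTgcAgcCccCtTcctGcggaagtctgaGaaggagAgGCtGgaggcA

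The 3 fast heavy chain genes lie side by side on the plus strand of chromosome 11 in GRCm38, with Myh2 at chr11:67171027-67197517, Myh1 at chr11:67200052-67224575 and Myh4 at chr11:67238029-67260446, in 39, 40 and 39 exons. Myh7 spans 41 exons at chr14:54970684-54994626 on the minus strand. Tnnt3 (chr7:142498836-142516009, 15 exons) and Tnni2 (chr7:142441808-142444410, 8 exons) are neighbours on the plus strand of chromosome 7, and Tnnt1 is at chr7:4504570-4516382 on its minus strand in 14 exons. Tnnc2 is at chr2:164777161-164779967 (minus strand, 6 exons), Tnni1 at chr1:135779434-135810989 (plus strand, 9 exons) and Tnnc1 at chr14:31208312-31211729 (plus strand, 6 exons). In the deposited table the loci of 6 members also hold other entries, among them Lsp1 and Prr33 at Tnnt3, Ube2c at Tnnc2, Nisch at Tnnc1 and Mhrt at Myh7, and counting by strand is not given in the sources used here, so reads of such neighbours may not be fully told apart.

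Promoters are shown for Myh4, the most abundant fast heavy chain, and for Myh7 and Tnnt1, a pair of slow genes that were low in the same muscle group. They are the 250 bases before the start of transcription in RefSeq on GRCm38.p6, which held 8 of the 10 members (not Tnni2 or Tnnt3), read on the gene's strand, and Myh7 is shown for the first of its starts listed. RefSeq and GENCODE starts can differ. Capitals mark matches to an E-box (CANNTG, the site of MyoD-type factors, its own complement), to MCAT (CATTCC on either strand, the site of TEAD factors) or to TATAAA on the gene's strand.
Myh4, chr11:67237562-67237811: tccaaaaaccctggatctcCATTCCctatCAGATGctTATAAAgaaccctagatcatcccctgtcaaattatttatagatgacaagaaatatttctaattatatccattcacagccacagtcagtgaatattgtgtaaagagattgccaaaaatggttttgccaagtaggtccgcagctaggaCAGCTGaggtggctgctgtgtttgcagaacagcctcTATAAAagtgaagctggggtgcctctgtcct
Myh7, chr14:54994627-54994876: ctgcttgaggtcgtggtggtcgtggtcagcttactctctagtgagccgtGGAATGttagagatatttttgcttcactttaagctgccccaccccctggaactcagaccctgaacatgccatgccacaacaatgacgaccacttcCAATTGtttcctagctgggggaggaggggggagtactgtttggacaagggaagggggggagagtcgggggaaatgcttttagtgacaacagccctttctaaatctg
Tnnt1, chr7:4515976-4516225: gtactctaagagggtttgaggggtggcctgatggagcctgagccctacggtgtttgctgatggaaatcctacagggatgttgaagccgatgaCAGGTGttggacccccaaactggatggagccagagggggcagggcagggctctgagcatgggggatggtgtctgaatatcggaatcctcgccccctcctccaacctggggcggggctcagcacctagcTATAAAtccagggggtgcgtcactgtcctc
An E-box was found in 6 of 8 members against 66.2% of all 32851 promoters, MCAT in 4 of 8 (Myh1, Myh4, Myh7 and Tnnc1) against 12.6%, and TATAAA in 3 of 8 (Myh1, Myh4 and Tnnt1) against 7.59%. MEF2 and MEF3 (TCAGGTT) matches were in 0 of 8, against 0.508% and 3.49%. Member counts use the first start listed for each gene, whereas the shares run over all promoters listed. The other start listed for Myh7 held no MCAT match. Such matches describe letters and show no binding.

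Skeletal muscle carried the fast programme at levels far above the slow one in all 4 groups. Myh4 was 8353 FPKM in WTAL (95% interval of the authors 2442 to 14264), 5576 in KOAL (0 to 15819), 9542 in WTDR (2142 to 16942) and 7653 in KODR (0 to 20840). The intervals of the 4 groups overlapped for Myh4, and those of KOAL and KODR reach 0. Tnnt3 was 10652, 10984, 14779 and 15688 FPKM in WTAL, KOAL, WTDR and KODR, Tnni2 was 7628, 8441, 12048 and 12342 in the same order, and Tnnc2 was 11111, 8153, 13498 and 10875. The fast troponins thus stood at levels like that of Myh4, and within each group the intervals of these 4 genes overlapped one another from neighbour to neighbour. Myh1 followed at 642, 1106, 740 and 703 FPKM and Myh2 at 444, 664, 305 and 480. These forms of the intermediate fast fibres were both highest in KOAL, where Myh4 was lowest, with overlapping intervals in every case.

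Slow forms came last in every muscle group, and WTDR muscle held the lowest value of all 4. Myh7, the slow heavy chain, was 123 FPKM in WTAL (47.9 to 198), 84.8 in KOAL (5.02 to 165), 32.6 in WTDR (8.16 to 57.0) and 83.6 in KODR (24.2 to 143). Tnnt1 was 138 FPKM in WTAL (59.7 to 217), 161 in KOAL (39.9 to 282), 52.6 in WTDR (0 to 116) and 146 in KODR (59.8 to 233). WTDR stood below the other 3 groups for both genes, with intervals that overlapped theirs. Tnni1 was 107 FPKM in WTAL (50.5 to 163), 132 in KOAL (46.7 to 216), 41.5 in WTDR (0 to 105) and 121 in KODR (61.9 to 180). Tnnc1 was 92.1 FPKM in WTAL (0 to 200.2), 140 in KOAL (0 to 326), 40.2 in WTDR (0 to 107) and 137 in KODR (13.6 to 260.1). The highest group exceeded WTDR by 3.78 times for Myh7, 3.06 for Tnnt1, 3.17 for Tnni1 and 3.49 for Tnnc1, against highest-to-lowest ratios of 1.47 (Tnnt3) to 2.17 (Myh2) among the fast members.

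**Figure D1:**
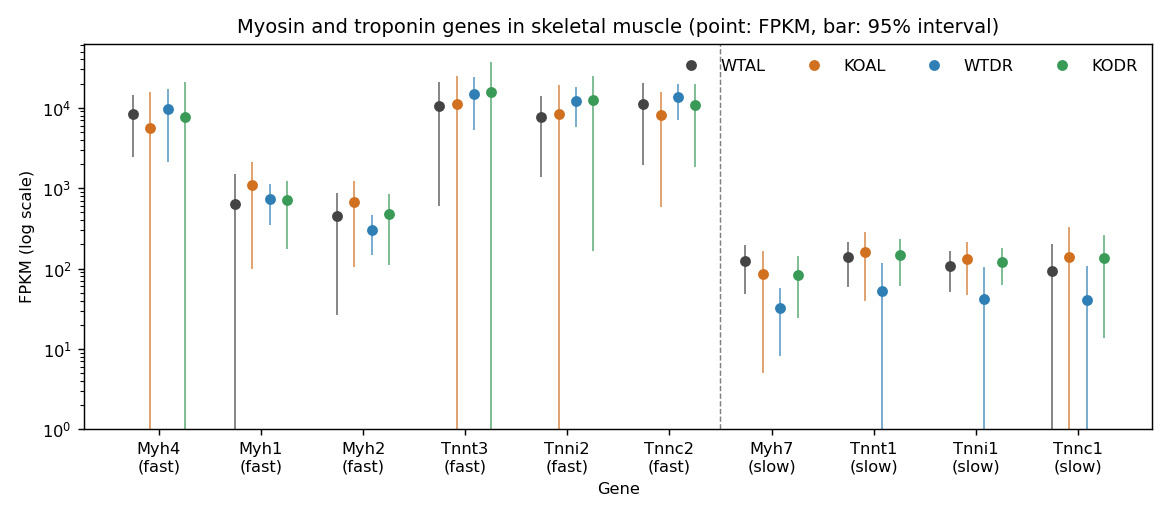
FPKM of the 10 genes in skeletal muscle on a log axis, by group, with the 95% interval of the authors as a bar (bars that reach 0 are drawn to the foot of the axis). Fast forms other than Myh1 and Myh2 sit between 5576 and 15688, slow forms between 32.6 and 161, and WTDR (blue) is the lowest point of each slow form.

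The order of levels was nearly the same in each muscle group: Tnnt3, Tnnc2, Tnni2 and Myh4 in the first 4 places in some order, then Myh1, then Myh2, then the slow forms. Neighbours in this order had overlapping intervals throughout WTAL, KOAL and KODR muscle. In WTDR muscle 2 gaps were wider than the intervals, between Myh4 and Myh1 (2142 against an upper bound of 1137) and between Myh2 and Tnnt1 (149 against 116). Myh4 made up 87.4% ± 5.87 (SD, in percentage points) of the summed FPKM of the 4 heavy chains in WTAL muscle, 75.04% ± 18.2 in KOAL, 89.9% ± 3.97 in WTDR and 85.8% ± 10.9 in KODR. Myh7 made up 1.29% ± 0.559, 1.14% ± 0.953, 0.307% ± 0.157 and 0.938% ± 0.768.

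Set as a share of all members, the slow forms made up 1.17% ± 0.316 of the summed FPKM in WTAL muscle, 1.46% ± 0.567 in KOAL, 0.327% ± 0.121 in WTDR and 1.01% ± 0.353 in KODR. The fast sum was 84.4, 67.5, 305 and 97.9 times the slow sum in those groups. Each protein family gave a low share in WTDR: Myh7 0.307% of the heavy chains, Tnnt1 0.355% ± 0.241 of troponin T, Tnni1 0.343% ± 0.276 of troponin I and Tnnc1 0.297% ± 0.255 of troponin C. In the other 3 groups the shares of the 4 families ran from 0.822% ± 0.585 (Tnnc1 in WTAL) to 1.69% ± 1.34 (Tnnc1 in KOAL). These SDs come from the authors' intervals with genes taken as independent, and no test was made on the shares.

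**Figure D2:**
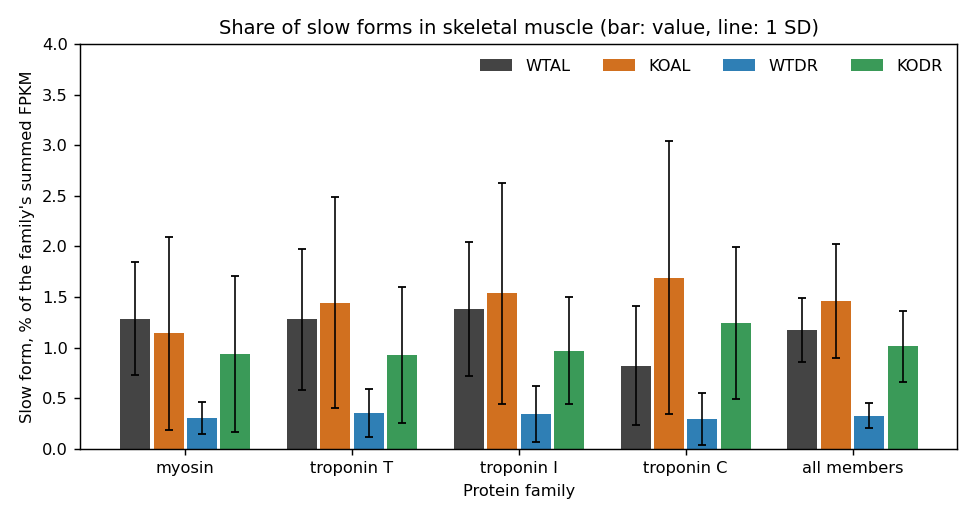
Slow form as a percent of the summed FPKM of its family, and of all 10 genes, in skeletal muscle by group, with 1 SD as a line. The WTDR bars lie between 0.297% and 0.355%, and the other groups between 0.822% and 1.69%.

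KOAL against WTAL muscle asks whether loss of IRS1 alone moved the fibre genes. No member passed the test (0 of 10 by the two-sided Wald test at an FDR of 10%, 0 at an unadjusted p under 0.05), where 0.681% of 14102 entries did. Log2 differences ran from -0.58 (SE 1.42) for Myh4 to 0.79 (SE 1.17) for Myh1. Slow members had a median of 0.26 and fast members one of 0.10, against -0.05 over all entries tested. The 95% interval of the difference for Myh7 was -2.12 to 1.05, so a change of more than 2-fold in either direction is within the error. Of 14 other fast fibre genes and 14 other slow fibre genes, 0 passed by the same test, with 0 and 1 at an unadjusted p under 0.05. That one was Myl3, the slow essential light chain, at 101 FPKM in WTAL and 293 in KOAL (1.54, SE 0.75). Myl2, the slow regulatory light chain, was 198 and 354. Markers of other cells moved beside these values: 4 of 5 red blood cell markers and, of the brown and beige fat list, Ucp1 (9.54, SE 1.85) and Cidea (5.20, SE 1.11) were called higher in KOAL. Ucp1 was 0.0897 FPKM in WTAL and 66.9 in KOAL, so it entered the test only through its KOAL value. Of the same list Ppara was 3.31 and 3.54 FPKM, Dio2 0.151 and 0.397, and Elovl3 0 and 1.30. The adipocyte list was mixed, with Lep called lower (-3.09, SE 0.58) and 3 values higher and 5 lower, and so was the B cell list, with Cd79a called lower (-3.24, SE 0.87) and 2 values higher, Ighm and Igkc, and 3 lower. Their part was not tested.

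WTDR against WTAL muscle asks the same of the diet. The 4 slow members all had lower values in WTDR and 5 of the 6 fast ones higher values, but 0 of 10 passed the Wald test, where 1.40% of 14089 entries did. Myh7 differed most, by -1.92 on the log2 scale (SE 0.70), with an unadjusted p of 0.00599 and an adjusted p of 0.286, the only member under an unadjusted p of 0.05. The others were Tnnt1 at -1.39 (SE 0.96), Tnni1 at -1.36 (SE 1.16) and Tnnc1 at -1.20 (SE 1.46). The slow median was -1.38, against 0.24 for the fast members and -0.06 over all entries. Among fast members the difference ran from -0.54 (SE 0.77) for Myh2 to 0.66 (SE 0.70) for Tnni2. When the SD of each group was divided by the root of its number of libraries, Myh7 passed with an adjusted p of 7.49e-04, and it was the only member that did, while the share of all entries that passed went to 6.37%. In bulk tissue, fewer slow fibres and less slow RNA per fibre cannot be told apart.

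Other slow fibre genes also had mostly lower values in WTDR muscle. Of the 13 tested 3 were called lower, where 0.603% of 14089 entries were. Ankrd2, a stretch-responsive partner of titin that slow fibres favour, was 169 FPKM in WTAL (83.0 to 256) and 22.2 in WTDR (7.40 to 37.1), a log2 difference of -2.93 (SE 0.61, adjusted p 3.32e-04). Csrp3, the muscle LIM protein, went from 158 to 31.1 FPKM (-2.34, SE 0.63, adjusted p 0.0206). Myoz2, the slow-fibre calsarcin of the Z-disc, went from 148 to 33.6 FPKM (-2.14, SE 0.58, adjusted p 0.024). Results under other settings of the test, such as a t distribution in place of the normal one, were taken for the members but not for these 3 genes. The 10 that did not pass held Myl2 at -0.89 (SE 0.64), Myl3 at -0.65 (SE 0.95), Fhl1 at -0.39 (SE 0.60) and Mybpc1, the slow myosin-binding protein C, at 0.22 (SE 0.89). Over the list 12 of 13 values were lower, with a median of -1.05. Of 14 other fast fibre genes 0 passed by the Wald test (2 at an unadjusted p under 0.05), 11 values were higher and the median was 0.58. Among 16 regulators of fibre type 15 were tested and 0 passed (0 at an unadjusted p under 0.05).

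Markers of other tissues moved with this comparison. The 8 liver markers, from Alb to Serpina1a, summed to 21.2 FPKM in WTAL, 51.8 in KOAL, 2705 in WTDR and 117 in KODR muscle, and all 8 passed as higher in WTDR than in WTAL, with none of them at 0 in any muscle group. Apoc3, Fgb and Serpina1a were under 1 FPKM in WTAL and entered the test through their WTDR value. The 8 adipocyte markers summed to 2066, 2173, 697 and 2854 FPKM in the same order, with all 8 values lower in WTDR and Lep called lower. Red blood cell markers summed to 949.8, 11582, 1553 and 20283, smooth muscle markers to 60.1, 30.5, 20.3 and 48.4, and B cell markers to 595, 1176, 296 and 470.5, with Cd79a called lower in WTDR (-3.34, SE 0.86). Skeletal muscle markers (Acta1, Ckm, Mb, Ttn, Neb, Des, Cox6a2 and Tcap) summed to 64439, 67871, 92263 and 90673 FPKM, and 0 of 8 passed in any muscle comparison (0 at an unadjusted p under 0.05). Of the heart markers, Nppa was listed at 0 in all 4 muscle groups and Myl7 was at most 0.231 FPKM, while Actc1 was 92.7 to 559 and Myh6 6.13 to 24.6. Their part in the low slow values of WTDR muscle was not tested.

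KODR against WTDR muscle asks whether the KO label mattered under restriction. Values of all 4 slow members were higher in KODR and 0 of 10 members passed the Wald test (0 at an unadjusted p under 0.05), where 2.23% of 14021 entries did. The log2 difference was 1.36 (SE 0.74) for Myh7, 1.48 (SE 0.97) for Tnnt1, 1.54 (SE 1.16) for Tnni1 and 1.77 (SE 1.36) for Tnnc1, a median of 1.51 against -0.02 for the fast members and 0.04 over all entries. This comparison shares the WTDR group with the one before, so the low slow values of WTDR enter both. With each SD divided by the root of the number of libraries, Myh7 (adjusted p 0.0226) and Tnnt1 (0.0819) passed, as did 10.7% of all entries. Other slow fibre genes had 13 of 14 values higher, a median of 1.11 and 0 passing (4 at an unadjusted p under 0.05), with Myl3 at 64.2 against 302 FPKM (2.24, SE 0.94) and Myl2 at 107 against 314 (1.56, SE 0.63). Other fast fibre genes had a median of -0.12 and 0 passing. Beside these values, 8 of 8 liver markers were called lower, 4 of 8 adipocyte markers and 2 of 5 red blood cell markers higher in KODR, and their part was not tested. Of the liver markers, Fgb was under 1 FPKM in KODR and entered the test through its WTDR value.

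Of 15 regulators of fibre type tested, 2 were called lower in KODR than in WTDR muscle, where 1.35% of all entries were called lower. The other count was 1 (Six4), called lower than in KOAL, where 0.286% were. Six4, a homeobox factor of muscle, was 3.37, 4.27, 3.92 and 2.53 FPKM in WTAL, KOAL, WTDR and KODR muscle, with a narrow interval in KODR (2.33 to 2.74). KODR lay below the other groups, and its interval overlapped that of WTAL alone. It was lower in KODR than in WTDR by a log2 difference of -0.63 (SE 0.09, adjusted p 5.39e-09) and than in KOAL by -0.75 (SE 0.11, adjusted p 1.73e-08). Mef2c, a MADS-box activator of muscle genes, was 71.7, 51.4, 85.8 and 47.1 FPKM and lower in KODR than in WTDR by -0.86 (SE 0.27, adjusted p 0.0666), and it was not called against KOAL. Sox6, which represses slow genes, was 15.2, 12.7, 19.2 and 13.6 FPKM and did not pass in a muscle comparison. Results under other settings, such as a t distribution in place of the normal one, were not taken for Six4 or Mef2c.

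KODR against KOAL muscle gave the smallest slow differences, from -0.14 (SE 0.69) for Tnnt1 to -0.02 (SE 0.85) for Myh7. No member passed by the Wald test (0 at an unadjusted p under 0.05), where 0.500% of 14008 entries did, and the 95% interval for Myh7 was -1.69 to 1.65. Whether the diet difference itself depended on the genotype label was tested as an interaction (KODR less WTDR, minus KOAL less WTAL, in log2). No member passed (0 at an unadjusted p under 0.05, 0.371% of 14547 entries passed), with Myh7 at 1.90 (SE 1.10), Tnnt1 at 1.26 (SE 1.18), Tnni1 at 1.24 (SE 1.30) and Tnnc1 at 1.16 (SE 1.87), so the low slow values of WTDR were not shown to be particular to the WT label.

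**Figure D3:**
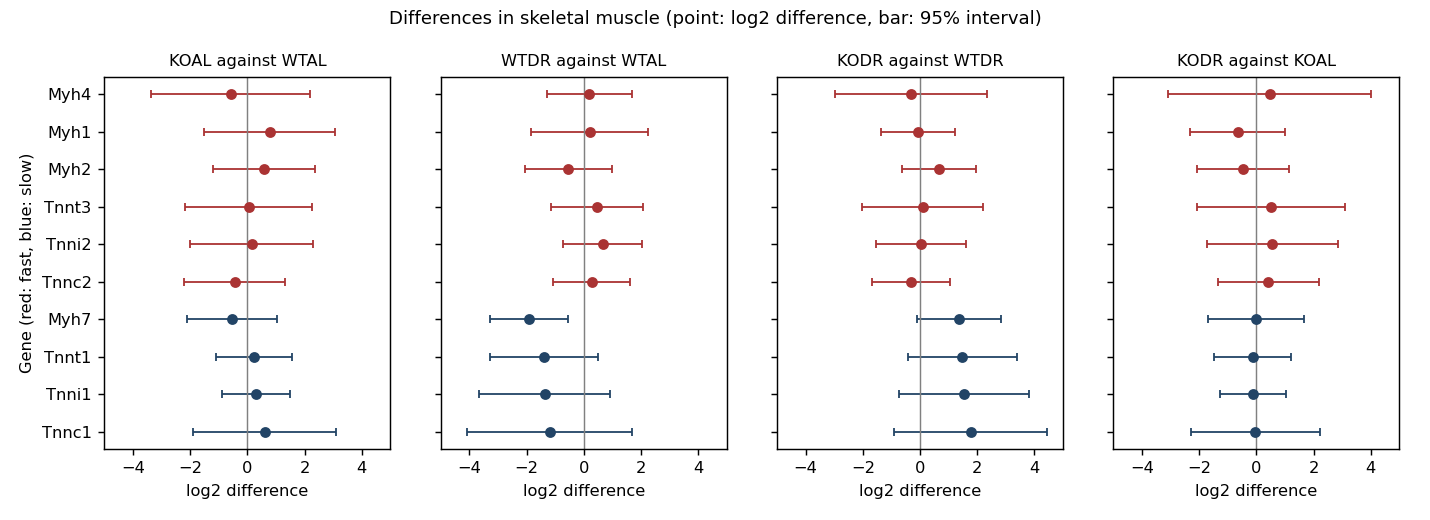
Log2 differences of the 10 genes in skeletal muscle for 4 comparisons, with the 95% interval as a bar. The slow genes (blue) lie left of 0 for WTDR against WTAL, where the bar of Myh7 alone excludes 0, right of 0 for KODR against WTDR, and within 0.14 of 0 for KODR against KOAL.

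Myosin forms of immature and regenerating fibres were present and did not pass in any muscle comparison. Myh8, the perinatal heavy chain, was 262, 217, 405 and 301 FPKM in WTAL, KOAL, WTDR and KODR muscle, below Myh1 in each. Myh3, the embryonic chain, was 7.02, 6.98, 8.69 and 6.38 FPKM and Myog, a factor of differentiating myoblasts, 4.20, 5.58, 6.16 and 5.16. Over the 16 groups of all tissues, the entries whose log2 level ran most like that of the fast members were Atp2a1 (Pearson r 0.997), Ckm (0.995), Actn3 (0.991), Mylpf (0.991) and Myl1 (0.990), of 16809 compared. Those most like the slow members were Actn2 (0.981), Myh6 (0.977), Sln (0.977), Casq2 (0.974) and Prkcq (0.973). Myh6 and Myh7 coding sequences are 91.7% identical. These correlations are descriptions over 4 tissues in which muscle stands apart from the rest.

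In inguinal WAT the same genes were present at a trace, and the WTAL group had less of the fast forms than the other 3 groups. Myh4 was 0.0699 FPKM in WTAL WAT (0 to 0.169), 55.0 in KOAL (0 to 137), 20.6 in WTDR (3.28 to 37.9) and 30.3 in KODR (14.7 to 45.8). WTDR and KODR lay wholly above WTAL, while the interval of KOAL reaches 0. Tnni2 was 1.54 FPKM in WTAL (0 to 3.36), 92.3 in KOAL (4.47 to 180.2), 29.6 in WTDR (0 to 65.0) and 50.2 in KODR (20.6 to 79.8). Tnnc2 was 4.01 FPKM in WTAL (0 to 9.30), 84.6 in KOAL (0.93997 to 168), 31.3 in WTDR (0 to 68.5) and 52.9 in KODR (16.6 to 89.3). Tnnt3 was 1.59, 95.02, 36.1 and 45.2 FPKM, with intervals that reach 0 in all 4 groups. KOAL had the highest value for each of these 4 genes and WTAL the lowest.

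The lesser fast chains and the slow forms were lower and followed another order. Myh1 was 0.757 FPKM in WTAL WAT (0.153 to 1.36), 6.95 in KOAL (0 to 14.4), 1.33 in WTDR (0.136 to 2.53) and 8.92 in KODR (4.79 to 13.0). Myh2 was 0.364 FPKM in WTAL (0.0347 to 0.693), 5.68 in KOAL (0.488 to 10.9), 0.526 in WTDR (0 to 1.43) and 3.43 in KODR (0.658 to 6.19). Both stood low in WTAL and WTDR and higher in the groups labelled KO. Myh7 was 0.271, 1.87, 0.266 and 2.98 FPKM in WTAL, KOAL, WTDR and KODR, Tnnt1 0.851, 3.40, 0.941 and 5.36, Tnni1 0.584, 1.82, 0.454 and 2.93, and Tnnc1 0.244, 2.15, 0.635 and 5.84. All 4 slow forms were under 1 FPKM in WTAL and WTDR WAT and highest in KODR, where they summed to 17.1 FPKM against 1.95, 9.24 and 2.30 in WTAL, KOAL and WTDR. The SD of Tnnc1, which shares its locus with Nisch, was 275% to 1114% of its value in WAT, and that of Tnnt3, whose locus holds Lsp1 and Prr33, 86.9% to 257%.

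**Figure D4:**
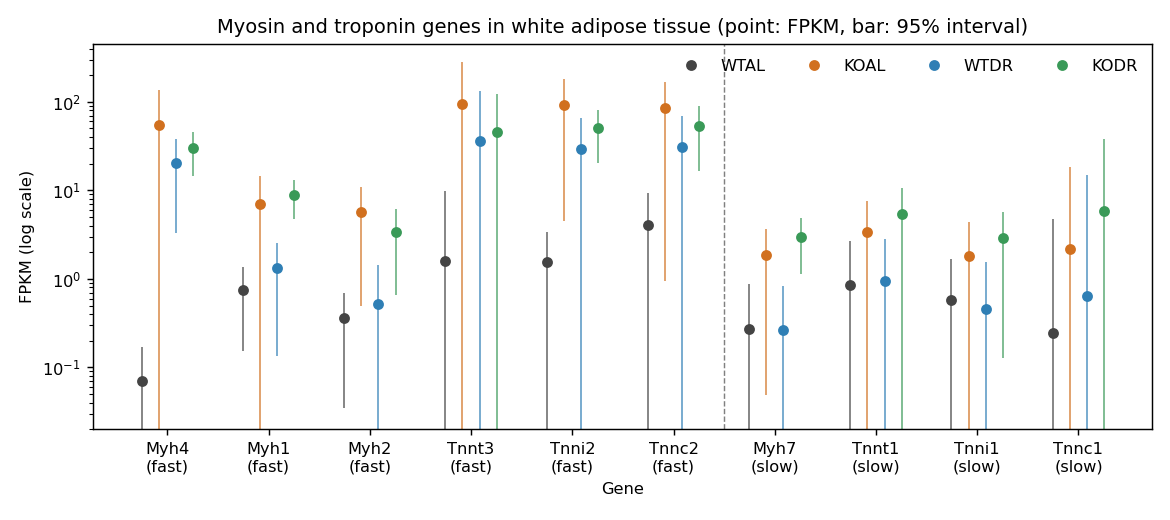
FPKM of the 10 genes in inguinal WAT on a log axis, by group, with the 95% interval of the authors as a bar (bars that reach 0 are drawn to the foot of the axis). The 4 abundant fast forms lie between 0.0699 and 4.01 in WTAL (grey) and between 20.6 and 95.02 in the other groups, and the slow forms peak in KODR (green).

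KOAL against WTAL WAT gave the largest number of changed members. Of the 6 fast genes 5 rose, and 0 of the 4 slow ones passed, where 1.29% of 15481 entries did. Myh4 was higher by 9.62 on the log2 scale (SE 1.48, adjusted p 1.04e-07), Tnni2 by 5.91 (SE 1.10, adjusted p 3.04e-05), Tnnc2 by 4.40 (SE 1.19, adjusted p 0.0238), Myh2 by 3.97 (SE 0.93, adjusted p 0.00334) and Myh1 by 3.20 (SE 0.96, adjusted p 0.0758). Tnnt3 differed by 5.90 with an SE of 3.97 and did not pass. Slow members ran from 1.64 (SE 1.69) for Tnni1 to 3.14 (SE 14.4) for Tnnc1. The size for Myh4 rests on the low WTAL value, since with a pseudocount of 1 it was 5.71 (SE 1.06, adjusted p 1.45e-05). Myh4, Myh1, Myh2 and the 4 slow members were under 1 FPKM in WTAL and entered the test through their KOAL value. Myh1 did not pass with the same pseudocount (2.18, adjusted p 0.129), with no filter on low FPKM (adjusted p 0.105) or at an FDR of 5%. Tnni2 alone had intervals that stay apart, and against a t distribution none of the 5 passed.

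Other fast fibre genes moved with these members in KOAL WAT. Of 12 tested 5 rose: Mylpf, the fast regulatory light chain, from 10.1 to 308 FPKM (4.93, SE 1.03), Actn3, the fast alpha-actinin, from 1.46 to 33.2 (4.51, SE 1.11), Pvalb, the calcium buffer parvalbumin, from 0.915 to 50.1 (5.78, SE 1.11), Myoz1 from 0.156 to 11.4 (6.19, SE 1.38) and Mybpc2 from 0.297 to 12.2 (5.36, SE 1.07). All 12 values were higher, with a median of 4.40 against -0.06 over all entries, and 1.04% of 15481 entries were called higher. Pvalb, Myoz1, Mybpc2 and Mybph were under 1 FPKM in WTAL and entered the test through their KOAL value. The count and median were thus partly set by the filter. Of 10 other slow genes tested 0 passed (0 at an unadjusted p under 0.05), with a median of 1.90. Myl2, Myl3, Myoz2, Csrp3 and Ankrd2 entered in the same way. Ckm, muscle creatine kinase, went from 2.204 to 148 FPKM (6.07, SE 1.08), Tcap, a titin cap protein, from 2.12 to 34.4 (4.02, SE 0.91) and Myh8 from 0.0703 to 2.79 (5.31, SE 1.41). Myh8 also entered through its KOAL value. Among regulators of fibre type 0 of 9 tested passed (0 at an unadjusted p under 0.05), and the myogenic factors Myog and Myod1 were at most 0.135 FPKM in any WAT group.

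The muscle marker list did not move as one in WAT. Of its 8 genes 7 were higher in KOAL than in WTAL and 2 of the 8 passed, but Acta1, skeletal alpha-actin, was 507 FPKM in WTAL (0 to 1286), 337 in KOAL (0 to 1226), 112 in WTDR (0 to 705) and 327 in KODR (0 to 1592). The list summed to 548, 664, 289 and 567 FPKM, and without Acta1, a split made after its values were seen, to 41.3, 326, 176 and 239.6. Adipocyte markers summed to 24578, 16529, 28321 and 20974 FPKM, with 0 of 8 passing in any WAT comparison. Of the 4 smooth muscle markers Cnn1 (2.97, SE 0.56) and Myh11 (1.65, SE 0.42) were called higher in KOAL, but Acta2, the most abundant, went from 575 to 279 FPKM and the list sum from 668 to 524. Also called higher was Dio2 (5.10, SE 0.90) of the brown and beige fat list, in which Ucp1 was 3.13, 9.87, 11.8 and 4.48 FPKM. Dio2 was under 1 FPKM in WTAL and entered the test through its KOAL value. Whether muscle pieces in the sample took part in the fast rise was not tested, and more muscle cells and more fast RNA per cell cannot be told apart.

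WTDR against WTAL WAT could be tested for 5 members, since Myh2 and the 4 slow forms were under 1 FPKM in both groups. Myh4 rose by 8.20 on the log2 scale (SE 1.19, adjusted p 8.80e-09) and Tnni2 by 4.27 (SE 1.21, adjusted p 0.0849), where 0.570% of 14925 entries passed and the median of all entries was -0.17. Tnnc2 differed by 2.96 (SE 1.28), Tnnt3 by 4.50 (SE 4.19) and Myh1 by 0.82 (SE 0.87), and none of these passed. Among 11 other fast genes Actn3 (4.47, SE 1.24) and Mybpc2 (4.10, SE 1.19) rose, and Ckm rose by 5.70 (SE 0.89). Myh4, Myh1 and Mybpc2 were under 1 FPKM in WTAL and entered the test through their WTDR value. With a pseudocount of 1 Myh4 differed by 4.34 (SE 0.58, adjusted p 1.21e-10), and it lost its call with a t distribution. Tnni2 lost its call with the t distribution, at an FDR of 5%, with intervals that must stay apart and with no filter (adjusted p 0.117). This comparison and the KOAL one share the WTAL group, so its low Myh4 value enters both.

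KODR against WTDR WAT gave higher values for all 10 members in KODR. Only Myh1 passed the Wald test, with a log2 difference of 2.74 (SE 0.73, adjusted p 0.0695), where 0.283% of 14820 entries did. Myh7 differed by 3.49 (SE 1.59) and Myh2 by 2.70 (SE 1.37), both at an unadjusted p under 0.05 but not past the FDR. The call of Myh1 ended with centring on the median (adjusted p 0.111), at an FDR of 5% and with a t distribution, and Myh7 gained one with a pseudocount of 1 (adjusted p 0.0887) and with intervals that stay apart. The slow median was 2.95 and the fast one 0.76, against 0.09 over all entries. Myh2 and the 4 slow members were under 1 FPKM in WTDR and entered the test through their KODR value. Their higher values were thus partly set by the filter. Against KOAL WAT, KODR had 0 of 10 members passing (0 at an unadjusted p under 0.05), where 0.707% of 15552 entries did, with 5 of 6 fast values lower (median -0.80) and 4 of 4 slow values higher (median 0.68). The interaction was called for Myh4 alone, at -9.07 (SE 1.64, adjusted p 6.99e-05), where 0.121% of 15727 entries passed. Tnni2 was at -5.15 (SE 1.46, adjusted p 0.227) and Tnnc2 at -3.64 (SE 1.55), while the slow members lay between 0.06 and 1.05.

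The difference between tissues was tested directly as the log2 difference in WAT less that in muscle. For KOAL against WTAL it passed for Myh4 (10.20, SE 2.05, adjusted p 0.00133) and Tnni2 (5.76, SE 1.55, adjusted p 0.0729), where 0.290% of 15856 entries did, and for WTDR against WTAL for Myh4 (8.01, SE 1.41, adjusted p 2.16e-05), where 0.324% of 15444 entries did. The difference of Myh4 was thus larger in WAT than in muscle by this test, and for the slow members no such difference passed. Its size rests on the low WTAL value in WAT. With a pseudocount of 1 the same Wald test gave 6.29 (SE 1.77, adjusted p 0.0637) for KOAL and 4.14 (SE 0.955, adjusted p 0.00484) for WTDR.

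As a share of the level in muscle of the same group, the members together were at 0.0262% ± 0.0151 in WTAL WAT, 0.984% ± 0.449 in KOAL, 0.238% ± 0.115 in WTDR and 0.431% ± 0.165 in KODR. In KOAL the 6 fast genes were alike, from 0.628% (Myh1) to 1.09% (Tnni2), and the slow ones were at 1.39% (Tnni1) to 2.2% (Myh7). In WTDR the fast genes were at 0.172% to 0.246% and the slow ones at 0.818% to 1.79%. In KODR they spread from 0.288% (Tnnt3) to 1.27% (Myh1) and from 2.42% (Tnni1) to 4.27% (Tnnc1). The slow percents were above every fast percent in each of the 4 groups. For the slow members together the SDs were near the size of the values or above it (0.424% ± 0.552 in WTAL, 1.79% ± 1.71 in KOAL, 1.38% ± 4.32 in WTDR and 3.51% ± 3.41 in KODR). Tnnc1 was the least certain, at 1.58% ± 17.6 in WTDR. In WTAL Myh4 was at 0.000837%, below Myh1 (0.118%) and Myh2 (0.0819%).

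**Figure D5:**
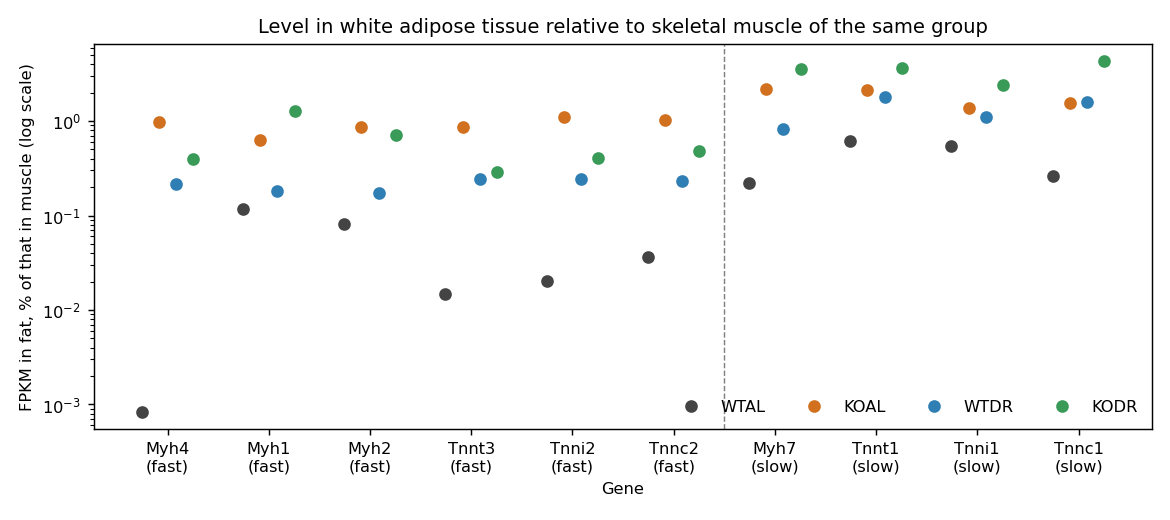
FPKM in WAT as a percent of that in muscle of the same group, on a log axis, for the 10 genes. KOAL fast genes lie between 0.628% and 1.09%, slow genes lie above the fast genes of their group, and Myh4 of WTAL is lowest at 0.000837%. SDs are not drawn.

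The make-up of the heavy chains in WAT followed that of muscle in some groups and not in others. Myh4 was 79.1% ± 13.4 of the summed heavy chains in KOAL WAT and 90.6% ± 4.79 in WTDR WAT, beside 75.04% and 89.9% in the muscle of those groups. In KODR WAT it was 66.4% ± 6.93, with Myh1 at 19.6% ± 4.995 and Myh7 at 6.55% ± 2.24, beside 85.8%, 7.89% and 0.938% in KODR muscle. In WTAL WAT, where the 4 chains summed to 1.46 FPKM, Myh1 was 51.8% ± 15.97 and Myh4 4.78% ± 3.56. Slow forms were 19.0% ± 21.8 of all members in WTAL WAT, 2.65% ± 2.56 in KOAL, 1.89% ± 5.84 in WTDR and 8.23% ± 7.45 in KODR.

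Liver and brain held far less of the fast forms, and brain a low level of the slow ones. The 6 fast genes summed to 0.175 FPKM in WTAL liver, 21.3 in KOAL, 2.86 in WTDR and 4.17 in KODR, with Tnnt3 highest at 7.31 in KOAL and Tnnt3, Tnni2 and Tnnc2 listed at 0 in WTAL. In brain they summed to 1.10, 6.83, 1.32 and 0.921 FPKM in the same order. The highest fast sum of liver and of brain, as of WAT, was thus that of KOAL and not that of a DR group. In KOAL liver the intervals of all 6 fast genes reach 0, and in KOAL brain only those of Myh4 and Myh1 do not. The skeletal muscle markers were also highest in KOAL. In the same order they summed to 5.47, 37.8, 6.66 and 12.2 FPKM in liver and to 8.87, 40.2, 17.7 and 14.5 in brain. Slow genes summed to 15.2, 14.7, 14.3 and 19.3 FPKM in brain, where Myh7 was 2.16 to 3.31, Tnni1 3.55 to 6.34, Tnnt1 2.49 to 8.57 and Tnnc1 0.930 to 4.75. Between brain groups the highest value was 5.11 times the lowest for Tnnc1 and 3.43 times for Tnnt1, which the sums do not show. The intervals of the groups overlapped for both genes. The SD of Tnnc1, which shares its locus with Nisch, was 296% to 1141% of its value in brain. In liver Tnnt1 was 0.998 to 1.94 FPKM, and Tnni1 was listed at 0 in 3 of the 4 groups.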

How the data were processed

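The labels list 43 poly(A) libraries from 4 tissues of female mice, in 16 groups. The authors trimmed reads with cutadapt 1.5, aligned them to GRCm38 and ran Cuffdiff 2.2.1. They deposited 1 table with an FPKM, a 95% interval and a status per group for 42349 entries, 873 of which join several genes. FPKM values are per length and relative to the mapped fragments, scaled between libraries by the authors' software. The table pools the libraries of a group, so depth is unknown and no spread between mice, batch or left-out library could be computed.

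All steps used Python 3.11.15 (numpy 2.4.6, pandas 2.3.3, scipy 1.17.1, matplotlib 3.10.9). The distance from an FPKM to its upper bound, divided by 2, was taken as the SD. Log2 differences, without a pseudocount, were tested by a two-sided Wald test with a delta-method SE and a normal reference, and p values were adjusted by Benjamini-Hochberg within each comparison over the whole table at an FDR of 10%. Entries needed status OK, an FPKM above 0 in every group compared and of at least 1 in one. Such p values measure the spread that Cuffdiff estimated from 2 or 3 libraries a group. The test was run on simulated muscle values drawn with the same SDs that it uses, so this could not check those SDs. Changes were planted only in entries with small relative SDs, so the test was not checked for WAT or for members with wide intervals.

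The members and lists were chosen with earlier results of these data known. Named genes are the members, list genes that passed, and otherwise up to 4 a list with the highest mean FPKM in muscle. Regulators, developmental, marker and light chain genes named beyond that were chosen after their values were seen. Lists were other fast and slow fibre genes, developmental myosins, fibre type regulators, and markers of skeletal muscle, adipocytes, liver, heart, smooth muscle, brown and beige fat, red blood cells and B cells. Likeness was the Pearson r of log2(FPKM + 1) with log2(summed FPKM + 1) of the fast or slow members. It was taken over entries of at least 1 FPKM in at least 4 groups. Alternatives were a t distribution, an FDR of 5%, a call only where the deposited intervals stay apart, SDs divided by the root of the libraries, pseudocounts of 0.1 and 1, other FPKM filters, a minimum fold of 2, centring on the median and leaving out joined entries. Single-gene results under these alternatives were taken for the members and not for the list genes. Gene positions and coding sequences are those of GENCODE vM21 on GRCm38.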

Additional observations from a re-analysis of the deposited data

Results flagged for a closer look

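The interaction of genotype label and diet in WAT was past the threshold for Myh4 (-9.07 in log2, SE 1.64). Its WTAL value of 0.0699 FPKM enters this difference, and the group held 2 libraries.

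The difference between tissues, WAT less muscle, was past the threshold for Myh4 (10.20 in log2, SE 2.05) and Tnni2 (5.76, SE 1.55) in KOAL against WTAL, and for Myh4 (8.01, SE 1.41) in WTDR against WTAL. All 3 rest on the same WTAL groups. With a pseudocount of 1 those of Myh4 were 6.29 in KOAL against WTAL and 4.14 in WTDR against WTAL.

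In brain, which no comparison used, Myh4 was 1.18 FPKM in KOAL and 0.264 in WTDR, both with intervals above that of WTAL, where it was 0.0144 FPKM. KODR brain was at 0.0730 FPKM.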

How the results depend on the processing

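No paired analysis was possible because the deposited table gives 1 pooled value per group and none per library. For the same reason no library was left out, and depth limits are unknown. Intervals that stay apart give no value for interactions or differences between tissues. Of 164 counts and shares 142 kept their value within the limits set, and of 1213 single gene values under an alternative 4 turned direction.

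In muscle, an SD divided by the root of the libraries called 1 member (Myh7) instead of 0 in WTDR against WTAL and 2 (Myh7 and Tnnt1) instead of 0 in KODR against WTDR, while the calls over all entries went from 197 to 897 and from 313 to 1505. In WAT, KOAL against WTAL went from 5 members to 1 (Tnni2) with intervals that stay apart and to 0 with a t distribution, and lost Myh1 alone with no filter, with a pseudocount of 1 and at an FDR of 5%. WTDR against WTAL went from 2 to 1 (Myh4) with an FDR of 5%, with intervals that stay apart and with no filter, and to 0 with the t distribution. KODR against WTDR went from 1 to 0 with an FDR of 5%, with the t distribution and with centring, and to 2 (Myh1 and Myh7) with intervals that stay apart and with a pseudocount of 1. The WAT interaction went from 1 to 0 with the t distribution and to 3 with the SD over the root. The tissue difference in KOAL went from 2 to 1 (FDR of 5%), 0 (t distribution) and 4 (SD over the root), and that in WTDR from 1 to 0 (t distribution) and 2 (SD over the root). The t distribution left 0 to 3 calls over all entries in the WAT comparisons named. The median of the members' own percents put WAT at 0.0999% of muscle in WTAL instead of 0.0262%, and at 0.991% in KODR instead of 0.431%.

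Centring on the median turned the sign of 4 values near 0, none of them called: Tnni2 in KODR against WTDR muscle (-0.0043), Myh2 (-0.0027) and Tnnt3 (-0.034) in the muscle interaction, and Tnnc1 (-0.074) in the WAT interaction. The median of all entries was -0.17 in WTDR against WTAL WAT and 0.13 in the WAT interaction. Over the 11 settings with a test, Myh4 in KOAL against WTAL WAT ran from 5.71 to 9.68 and was called in 10, and Myh7 in WTDR against WTAL muscle from -1.92 to -1.85 and was called in 1.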
